A study of Homo sapiens with 12 samples.

Results

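Plexins are large single-pass membrane receptors for semaphorins, a family of secreted and membrane-bound guidance cues. Their cytoplasmic part holds a GTPase-activating domain that acts on small GTPases of the Ras and Rap group, and through it plexins loosen integrin adhesion and remodel the actin cytoskeleton. They are best known from axon guidance, and in epithelia and carcinomas they take part in migration, cell contact and signalling with receptor tyrosine kinases. The human genome holds 9 of them, in classes A, B, C and D, and all 9 were described here out of 26334 genes counted in A549 cells, a line derived from a human lung adenocarcinoma. The genes were chosen by symbol, PLXNA1, PLXNA2, PLXNA3, PLXNA4, PLXNB1, PLXNB2, PLXNB3, PLXNC1 and PLXND1, but the family came into view because of the large Cisplatin response of PLXNB3. Its Cisplatin values are therefore a description without a test.

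The 12 poly(A) RNA-seq libraries fell into 4 groups of 3, labelled as biological replicates. A549 cells had received a lentivirus with a control hairpin (shControl) or a hairpin against RNF113A (shRNF113A), a zinc-finger ubiquitin ligase found in the spliceosome, and were kept in puromycin at 1 μg/ml for 4 days. Each kind of cell was either left untreated or given Cisplatin, a platinum drug that forms DNA crosslinks, at 25 μg/ml for 20 h according to the labels. The design asked what Cisplatin did in each kind of cell, what the hairpin against RNF113A did with and without the drug, and whether the effects depended on each other. All 12 libraries came from a single line under the same selection, so the p-values measure the spread between cultures of that line.

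The libraries held 26220526 to 45721152 read pairs assigned to genes. RNF113A itself was at 19.9 ± 0.397 CPM (counts-per-million after TMM scaling, mean ± SD, n = 3) in untreated shControl cells, 29.4 ± 1.95 CPM after Cisplatin, 16.0 ± 0.772 CPM in untreated shRNF113A cells and 26.7 ± 2.88 CPM in treated ones. The targeted mRNA was thus lower in the shRNF113A libraries by only 1.17-fold (log2 fold change -0.23, SE 0.07, adjusted p = 0.0185, edgeR quasi-likelihood test), and with Cisplatin the 2 ranges overlapped (adjusted p = 0.233). The shControl libraries numbered 2, with and without Cisplatin, stood apart from the other libraries of their groups, with a chi-square per degree of freedom of 73.2 to 111 against them where all other pairs of replicates gave 4.54 to 20.9. For several plexin results the values without these 2 libraries are given as well, but the partner lists were fitted with all libraries only. Epithelial markers summed to between 3392 and 14022 CPM, carried by KRT8, KRT18 and CDH1, and were lower in every Cisplatin library (3392 to 5680.3) than in every untreated one (7156 to 14022). Markers of leukocytes (at most 4.51 CPM) and endothelium (at most 0.788 CPM) were near 0, those of fibroblasts summed to 3.75 to 35.0 CPM, and SOX10 was at 0 in all libraries among neural and glial markers that summed to 25.5 to 72.9 CPM, most of it MBP. The part of these markers in the plexin results was not tested.

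A filter on low counts kept 15352 genes and all 9 plexins, but PLXNC1 passed it only through the untreated shControl libraries, which were the 3 above the limit of 0.258 CPM. Since a gene admitted through the group in which it is high had to differ from the rest, PLXNC1 is described without a p and left out of the counts of called plexins. In a bulk library, fewer cells carrying a transcript and less of it per cell cannot be told apart.

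Compared per length, as exonic RPKM (reads-per-million of all exonic reads, per kb of exon), PLXNB2 was the highest plexin in every group. Its level was 22.1 ± 4.14 RPKM in untreated shControl cells, followed by PLXND1 at 8.57 ± 0.371, PLXNB1 at 5.72 ± 1.77 and PLXNA1 at 5.63 ± 1.53, of which the ranges of PLXNB1 and PLXNA1 overlapped. PLXNA3 (0.753 ± 0.189) and PLXNA2 (0.551 ± 0.0745) overlapped further down, then PLXNB3 (0.158 ± 0.0224) and PLXNC1 (0.101 ± 0.0526), with PLXNA4 last at 0.0144 ± 0.00173. Untreated shControl cells thus carried 4 plexins at high and 5 at low level.

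With Cisplatin the order changed. In treated shControl cells PLXNB2 stood at 50.2 ± 6.10 RPKM, PLXNB3 was second at 9.51 ± 1.64 with a range that overlapped that of PLXNB1 at 9.35 ± 0.848, which in turn overlapped PLXNA1 at 7.36 ± 1.97. PLXND1 dropped to the fifth place with 3.52 ± 0.167, PLXNA3 stood at 1.71 ± 0.328, PLXNA2 (0.145 ± 0.0457) overlapped PLXNA4 (0.129 ± 0.0131), and PLXNC1 was last. The summed level of the 9 genes was 43.6 ± 3.86 in untreated and 81.9 ± 9.05 in treated shControl cells, and 56.7 ± 6.51 and 96.0 ± 1.17 in shRNF113A cells. This sum is a description, since it holds PLXNB3. PLXNB2 alone made up 50.4% of it in untreated and 61.2% in treated shControl cells. PLXNB3 made up 0.363% of that sum in untreated and 11.6% in treated shControl cells, while PLXND1 went from 19.7% to 4.34%. A sum without PLXNB3 was not computed.

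Untreated shRNF113A cells had PLXNB2 (25.7 ± 3.32 RPKM), PLXND1 (12.02 ± 0.825), PLXNA1 (8.14 ± 1.16) and PLXNB1 (6.89 ± 0.841) on top, the last 2 with overlapping ranges, ahead of PLXNA2 at 1.93 ± 0.205 and PLXNA3 at 1.84 ± 0.185, which also overlapped. After Cisplatin they held PLXNB2 at 53.3 ± 0.713, PLXNB1 at 13.5 ± 0.212, PLXNA1 at 10.0 ± 0.526, PLXNB3 at 8.36 ± 0.984 and PLXNA3 at 6.08 ± 0.979, where PLXNA1 and PLXNB3 alone among neighbours overlapped. Over the 4 groups, 23 of 32 neighbouring pairs in the order had ranges that did not overlap. The spans of PLXNB3 and SRPK3, introns included, share 2935 bases on the same strand. Exonic reads that fall in exons of both were counted for neither, while the length used was that of all 6374 exon bases of PLXNB3. How many of its exon bases this concerns was not measured. From the read pairs per gene over the same lengths PLXNB3 stood at 15.5 ± 3.09 RPKM in treated shControl cells, above PLXNB1 at 9.98 ± 0.924 without overlap. In treated shRNF113A cells it then stood at 14.5 ± 1.54, in the third place, with a range that overlapped that of PLXNB1 at 14.8 ± 0.214.

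**Figure D1:**
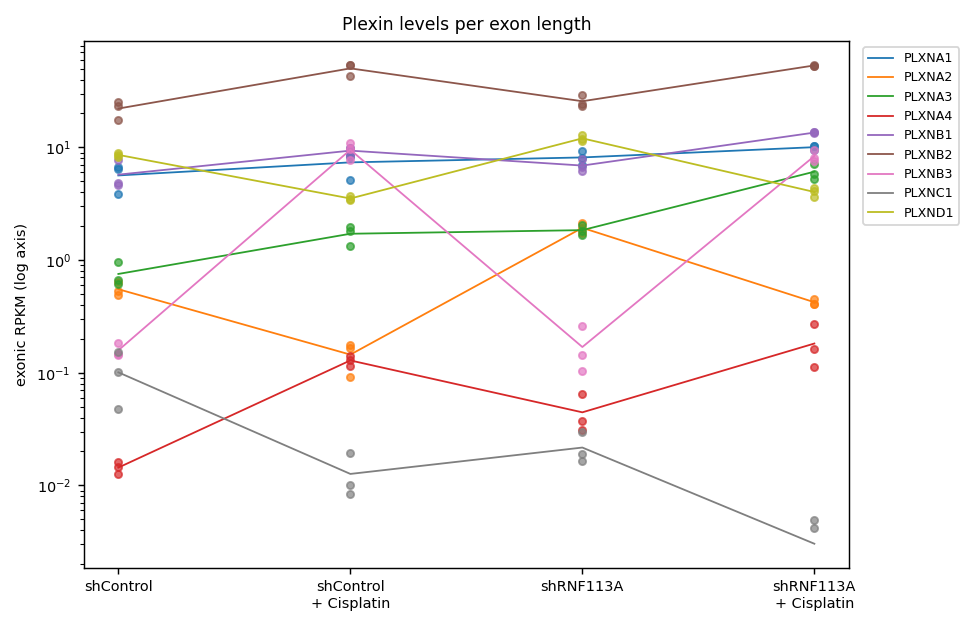
Level of each plexin as exonic RPKM (reads-per-million of all exonic reads, per kb of exon), on a log axis, in the 4 groups; points are libraries and lines join the group means. PLXNB2 stays on top from 22.1 to 53.3 while PLXNB3 goes from 0.158 to 9.51 in shControl cells, and the treated shRNF113A library in which PLXNC1 had 0 exonic reads cannot be drawn on this axis.

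Cisplatin moved most of the family. Of the 7 plexins counted, all but PLXNB3 and PLXNC1, 3 rose (PLXNA3, PLXNA4 and PLXNB2) and 2 fell (PLXNA2 and PLXND1) at an adjusted p under 0.05 and a change of at least 2-fold in the model with one drug and one hairpin term, where 21.5% of all genes tested were called, 10.3% higher and 11.2% lower. PLXNB1 rose by less than 2-fold, and PLXNA1 did not pass, where 66.8% of all genes had an adjusted p under 0.05 at any size of change. The median log2 fold change of the 7 was 0.72, beside 0.03 over all genes. Between treated and untreated libraries the CPM ranges of 6 of these 7 plexins did not overlap in shControl cells, and likewise in shRNF113A cells, where this held for 56.1% and 74.2% of all genes.

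PLXNB3, a class B receptor for SEMA5A that is mainly known from brain and glia, had the largest difference. Its gene lies on chromosome X (hg19 chrX:153029651-153044801, plus strand). Untreated shControl libraries gave 1.82, 1.17 and 1.83 CPM and treated ones 100.4, 73.8 and 114 CPM. In shRNF113A cells the values were 1.54, 2.55 and 1.48 CPM before and 86.0, 79.7 and 101 CPM after the drug. No untreated library came near a treated one, in counts 46 to 97 read pairs against 2579 to 5350. The treated level was 59.7-fold higher in shControl cells (log2 fold change 5.90, SE 0.25) and 47.6-fold higher in shRNF113A cells (5.57, SE 0.25), and 53.3-fold over both (5.74, SE 0.18). Without the shControl libraries numbered 2 the log2 fold change was 5.69.

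The genes IDH3G, BCAP31 and SSR4, which lie near PLXNB3, had no change of this size. IDH3G, a subunit of mitochondrial isocitrate dehydrogenase 6420 bases behind it, rose by less than 2-fold with Cisplatin (log2 fold change 0.38, adjusted p = 7.06e-05). BCAP31, 39499 bases before (0.08, adjusted p = 0.273), and SSR4, 14170 bases behind (0.03, adjusted p = 0.713), did not pass the test. SRPK3, a muscle kinase that overlaps the end of PLXNB3 on the same strand, had 2 read pairs in the 3 untreated and 56 in the 3 treated shControl libraries, and 2 and 32 in shRNF113A cells. Exonic reads that fall in exons of both genes were counted for neither. PLXNB3 had 2306, 1921 and 3152 exonic reads in treated shControl libraries, beside 3815, 3069 and 5350 read pairs. Whether its read pairs per gene, used here, lost any to the overlap was not tested.

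Over the 12 libraries, the genes whose log2 CPM followed PLXNB3 most closely among 9779 genes of at least 10 CPM on average were KANSL2 (Pearson r = 0.997), ICOSLG (0.996), BBC3 (0.996), TRIM3 (0.996) and FAM98C (0.996). This is a likeness of pattern and not of size, and the points share their libraries and their 2 treatments. KANSL2, a subunit of a histone acetyltransferase complex, had a log2 fold change of 0.77 with Cisplatin, against 2.41 for ICOSLG, a T-cell co-stimulatory ligand, 3.09 for BBC3, a pro-apoptotic member of the BCL2 family, 2.29 for TRIM3, a ubiquitin ligase, and 1.91 for FAM98C.

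The remaining class B receptors also increased. PLXNB2, a receptor for SEMA4C and SEMA4D with roles in neural and epithelial cells (hg19 chr22:50713408-50746056, minus strand), gave 168, 116 and 179.5 CPM in untreated and 357, 274 and 354 CPM in treated shControl libraries. The corresponding values in shRNF113A cells were 169, 204 and 162 CPM and 341, 349.6 and 355 CPM. Every treated library exceeded every untreated one. The rise was 2.04-fold (log2 fold change 1.03, SE 0.11, adjusted p = 1.62e-06), and it lay at the 2-fold limit, with 0.99 when the shControl libraries numbered 2 were left out and 0.94 without the untreated one alone.

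PLXNB1, the receptor of SEMA4D that couples to RhoA and to MET (hg19 chr3:48445261-48471594, minus strand), gave 41.9, 61.2 and 38.2 CPM in untreated and 65.3, 72.5 and 76.1 CPM in treated shControl libraries. In shRNF113A cells it went from 56.5, 65.3 and 52.7 CPM to 102, 105 and 107 CPM. The rise of 1.65-fold passed the test but not the 2-fold limit (log2 fold change 0.72, SE 0.11, adjusted p = 4.46e-05).

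Class A plexins bind class 3 semaphorins together with neuropilins, and class 6 semaphorins directly. They went different ways. PLXNA2, a receptor for SEMA3A and SEMA6A (hg19 chr1:208195587-208417665, minus strand), gave 6.60, 7.26 and 5.91 CPM in untreated and 2.08, 0.986 and 1.87 CPM in treated shControl libraries. In shRNF113A cells it was at 22.8, 25.0 and 20.4 CPM without and at 4.81, 4.51 and 4.75 CPM with Cisplatin. Ranges with and without the drug were apart in both kinds of cell. The fall was 4.43-fold (log2 fold change -2.15, SE 0.15, adjusted p = 3.28e-08).

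PLXNA3, which serves SEMA3F and neuropilin 2 in neurons (hg19 chrX:153686621-153701989, plus strand), moved in the opposite direction. Untreated shControl libraries gave 4.95, 7.44 and 5.20 CPM and treated ones 10.0, 13.5 and 13.3 CPM, and shRNF113A libraries gave 13.0, 16.6 and 14.4 CPM and then 41.4, 37.8 and 52.1 CPM. It rose 2.52-fold (log2 fold change 1.33, SE 0.14, adjusted p = 2.34e-06). In shControl cells alone the log2 fold change was 1.07 and sat at the limit, since it was 0.96, 0.99 and 0.99 when the untreated replicate 1, the untreated replicate 3 or the treated replicate 2 was left out.

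PLXNA4, a receptor for SEMA3A, SEMA6A and SEMA6B (hg19 chr7:131808091-132333447, minus strand), was scarce, with 0.249, 0.306 and 0.212 CPM in untreated and 2.21, 1.85 and 2.28 CPM in treated shControl libraries. Its values in shRNF113A cells were 0.503, 0.604 and 1.08 CPM before and 2.65, 1.85 and 4.34 CPM after the drug. In read pairs that is 8 to 35 against 60 to 116, without overlap. The rise was 5.51-fold (log2 fold change 2.46, SE 0.28, adjusted p = 4.18e-06).

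PLXNA1, the most abundant member of class A (hg19 chr3:126707437-126756235, plus strand), gave 62.6, 34.8 and 63.5 CPM in untreated and 74.3, 43.7 and 76.3 CPM in treated shControl libraries. In shRNF113A cells it went from 75.4, 86.3 and 65.7 CPM to 90.3, 89.1 and 84.1 CPM. Ranges overlapped in both kinds of cell and the difference did not pass (log2 fold change 0.24, SE 0.16, adjusted p = 0.186). Within the same-numbered pairs of shControl libraries the treated one was the higher in all 3, and with these libraries fitted alone as pairs the log2 fold change of 0.28 passed under 2-fold (SE 0.08, adjusted p = 0.0104, against 0.335 in shControl cells without the pairing). The shControl libraries numbered 2 were the lowest of their groups, and without them a log2 fold change of 0.23 passed, under 2-fold (SE 0.07, adjusted p = 0.00693).

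PLXND1, the receptor of SEMA3E with a central role in vessel patterning (hg19 chr3:129274018-129325661, minus strand), was the abundant plexin that fell. Untreated shControl libraries gave 69.9, 59.5 and 65.4 CPM and treated ones 24.3, 25.4 and 24.5 CPM, and shRNF113A libraries 90.1, 97.4 and 86.6 CPM and then 29.4, 32.0 and 26.5 CPM. Replicates lay closer together than for any other plexin. The fall was 2.86-fold (log2 fold change -1.52, SE 0.07, adjusted p = 1.04e-09).

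PLXNC1, the receptor of SEMA7A on leukocytes and melanocytes (hg19 chr12:94542499-94701451, plus strand), was near the limit of detection. It had 31, 48 and 15 read pairs in untreated and 4, 6 and 4 in treated shControl libraries. In shRNF113A cells it had 9, 5 and 5 and then 1, 2 and 1. Its fitted log2 fold change was -2.61 (SE 0.39), as a description. The ratio of summed library-scaled reads, treated to untreated, was 0.133 in shControl cells (exact 95% interval 0.0701 to 0.235) and 0.253 in shRNF113A cells (0.0627 to 0.763), intervals that cover counting error only. PLXNC1 overlaps CCDC41 and RP11-1105G2.3 on the opposite strand, where the same libraries held 18 to 53 read pairs. With both strands counted together the log2 fold change was -0.92. For every other plexin at most 7.69% of read pairs lay on the opposite strand.

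**Figure D2:**
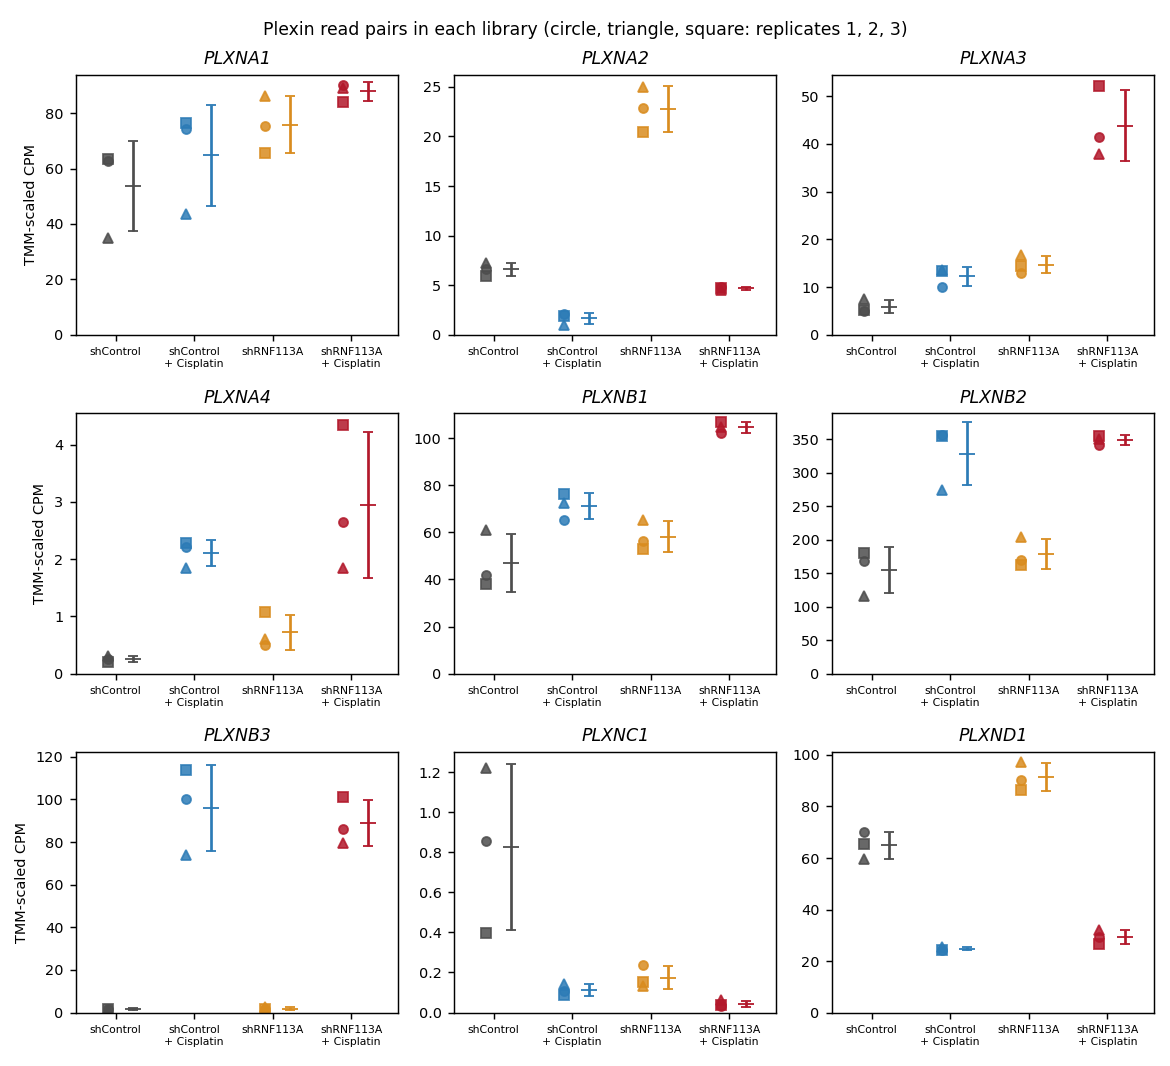
TMM-scaled CPM of the 9 plexins in every library, with circle, triangle and square for replicates 1, 2 and 3 and bars for the mean ± SD of each group of 3. Every treated library of PLXNB3 lies at 73.8 CPM or more and every untreated one at 2.55 CPM or less, whereas treated PLXND1 libraries lie at 24.3 to 32.0 CPM and untreated ones at 59.5 to 97.4 CPM.

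The promoters of PLXNB3 and PLXNA2 are shown since these genes had the largest rise and, at more than a few reads per library, the largest fall upon Cisplatin. The RefSeq sequences on GRCh38.p14 run from 250 bases before to 50 bases after the start, with GGGCGG (a GC box core) and CCAAT in capitals on either strand, at chrX:153763999-153764298 on the plus strand and chr1:208244335-208244634 on the minus strand.
PLXNB3: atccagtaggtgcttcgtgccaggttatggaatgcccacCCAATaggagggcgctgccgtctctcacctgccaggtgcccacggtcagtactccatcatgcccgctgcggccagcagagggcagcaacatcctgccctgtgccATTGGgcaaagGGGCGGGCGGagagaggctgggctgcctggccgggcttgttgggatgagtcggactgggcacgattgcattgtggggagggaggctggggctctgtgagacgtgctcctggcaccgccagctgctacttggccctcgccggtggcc
PLXNA2: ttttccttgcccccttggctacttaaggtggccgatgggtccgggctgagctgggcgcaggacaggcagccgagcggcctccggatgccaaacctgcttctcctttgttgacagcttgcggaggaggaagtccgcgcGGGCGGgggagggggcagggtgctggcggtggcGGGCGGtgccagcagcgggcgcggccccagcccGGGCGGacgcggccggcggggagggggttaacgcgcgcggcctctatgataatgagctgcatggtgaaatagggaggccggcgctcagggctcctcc

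PLXNB3 held 2 overlapping GGGCGG and 2 CCAAT matches, and PLXNA2 held 3 GGGCGG and none of CCAAT. The table gave 11 promoters for the 9 plexins. GGGCGG occurred in those of every plexin except PLXNA4, with 9 matches in PLXND1, beside 45.0% of all 35116 promoters searched, and CCAAT occurred only in PLXNB3 and in 1 of the 2 of PLXNB1, beside 34.6%. TATAAA (11.5% of promoters), the E-box CACGTG (7.26%), the AP-1 site TGACTCA (4.95%) and the p53 half-site (6.63%) were searched in the same way on both strands, and none of the 4 was found in the PLXNB3 or PLXNA2 window. The motifs do not overlap one another by their letters. PLXNB3 had 65.7% G and C with 15 CG pairs and PLXNA2 70.3% with 29, where the median promoter had 58.7% and 14. A match is a string of letters here and no binding site.

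The hairpin against RNF113A went with changes in fewer plexins. In the model with both terms PLXNA2 and PLXNA3 were higher in shRNF113A than in shControl cells, 2 of 8 called where 11% of all genes were (5.47% higher and 5.52% lower). With them, 4 more (PLXNA1, PLXNA4, PLXNB1 and PLXND1), higher by less than 2-fold, had an adjusted p under 0.05, as did 47.5% of all genes. PLXNB2 and PLXNB3 did not pass. Between hairpins the CPM ranges of 5 of these 8 plexins did not overlap without Cisplatin (43.3% of all genes), and likewise 5 of 8 with it (57.7%). The median log2 fold change of the 8 genes was 0.45, beside -0.0018 over all genes. The Cisplatin and hairpin comparisons share the untreated shControl libraries. The contrast stands for all that differed between the 2 kinds of cell, in which the RNF113A mRNA itself was only 1.17-fold lower.

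PLXNA2 was 3.17-fold higher with the hairpin (log2 fold change 1.66, SE 0.15, adjusted p = 2.39e-06), both without Cisplatin (1.79, adjusted p = 4.90e-05) and with it (1.51, adjusted p = 0.000228), and no shControl library reached a shRNF113A library of the same treatment. Its level of 4.69 ± 0.159 CPM in treated shRNF113A cells stood beside 6.59 ± 0.674 CPM in untreated shControl cells. PLXNA3 was 3.01-fold higher (log2 fold change 1.59, SE 0.15, adjusted p = 3.12e-06), by 1.32 without (adjusted p = 0.000322) and 1.83 with Cisplatin (adjusted p = 2.27e-05). Both genes kept these calls without the shControl libraries numbered 2, at 1.60 and 1.73.

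PLXNC1 had a fitted log2 difference of -1.996 (SE 0.38), as a description, from 94 read pairs in the 3 untreated shControl against 19 in the 3 untreated shRNF113A libraries, a ratio of library-scaled reads of 0.211 (exact 95% interval 0.122 to 0.348). With Cisplatin, 14 and 4 read pairs gave a ratio of 0.402 with an interval of 0.0963 to 1.28. Both intervals cover counting error only and leave out the spread between libraries. The single treated libraries had 4, 6 and 4 read pairs in shControl and 1, 2 and 1 in shRNF113A cells. Counted on both strands, the direction turned, to 0.09 on the log2 scale. The genes whose pattern over the 12 libraries was nearest to that of PLXNC1 were RHOQ (r = 0.981), a small GTPase, RHOBTB1 (0.979), PRKAA2 (0.976), a catalytic subunit of AMPK, ATP1B1 (0.975), a subunit of the sodium pump, and ELOVL5 (0.974), a fatty acid elongase. PLXNC1 had only 1 to 48 read pairs per library. As for PLXNB3, this is a likeness of pattern and not of size, over shared libraries and treatments.

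Among the plexins with smaller differences, PLXNA4 was 1.805-fold higher (log2 fold change 0.85, SE 0.28, adjusted p = 0.0219). In untreated cells alone it was called (1.48, adjusted p = 0.0187), but not without the shControl replicate 1 (adjusted p = 0.0526), the shControl replicate 3 (0.0617) or the shRNF113A replicate 3 (0.0793), and with Cisplatin it did not pass (0.47, adjusted p = 0.240). Without the shControl libraries numbered 2 the joint difference of 0.71 no longer passed (adjusted p = 0.0600).

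PLXND1 was 1.29-fold higher (log2 fold change 0.37, SE 0.07, adjusted p = 0.00101), without (0.49, adjusted p = 0.00148) and with Cisplatin (0.24, adjusted p = 0.0424). PLXNB1 was 1.35-fold higher (0.43, adjusted p = 0.00525), passing with Cisplatin (0.55, adjusted p = 0.00987) and not without (0.30, adjusted p = 0.146). When the shControl libraries numbered 2 were left out, PLXNB1 passed both without (0.54, adjusted p = 0.000227) and with Cisplatin (0.56, adjusted p = 8.85e-05). PLXNA1 was 1.38-fold higher (0.47, adjusted p = 0.0253), and only 1.18-fold without the shControl libraries numbered 2, which were low for this gene (0.24, adjusted p = 0.00900). These 3 genes moved by less than the drug moved PLXNB2.

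PLXNB2 differed by 0.15 on the log2 scale (SE 0.11, adjusted p = 0.271) and PLXNB3 by 0.00071 (SE 0.14, adjusted p = 0.997). For PLXNB3 the difference was 0.22 in untreated (SE 0.27, adjusted p = 0.585) and -0.11 in treated cells (SE 0.19, adjusted p = 0.656). In the fit without both shControl libraries numbered 2 it was -0.27 in treated cells (SE 0.11, adjusted p = 0.0540). Its level in treated cells therefore did not differ beyond the spread of replicates between the 2 kinds of cell.

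**Figure D3:**
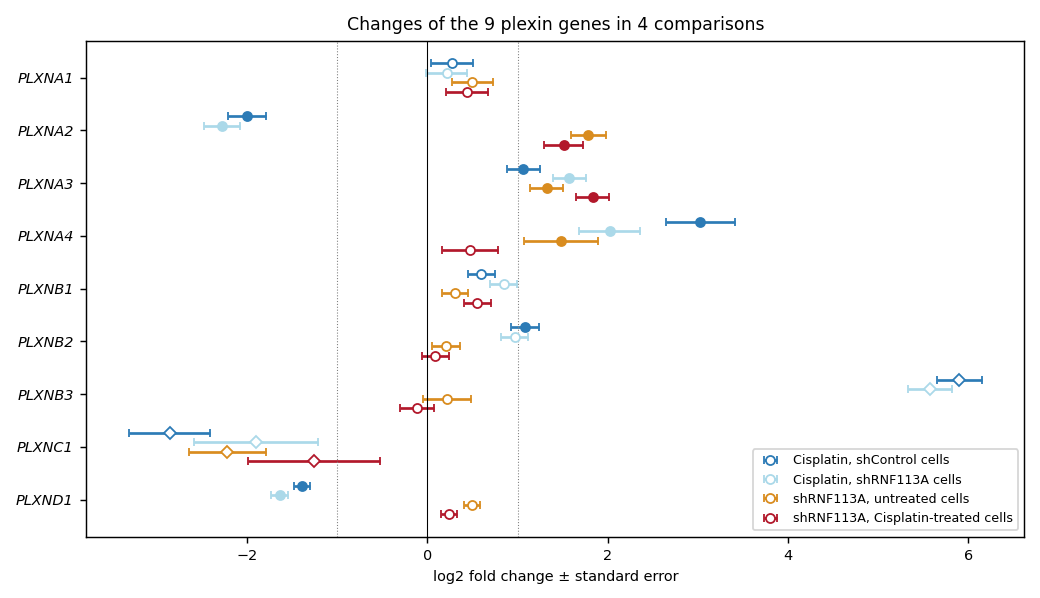
Log2 fold change ± standard error of each plexin for Cisplatin in shControl and shRNF113A cells and for the hairpin in untreated and treated cells, each from 3 against 3 libraries; filled circles are called, open circles are not, open diamonds (PLXNB3 with Cisplatin, and PLXNC1) are descriptions without a test, and dotted lines mark 2-fold. PLXNA2 falls with the drug (-2.001 and -2.28) and is higher with the hairpin (1.79 and 1.51), and PLXNB3 stands alone at 5.90 and 5.57.

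Whether the drug response depended on the hairpin was asked by an interaction term. None of the 8 plexins counted passed, where 1.28% of all genes were called (edgeR quasi-likelihood test, 0 of 8 at an unadjusted p under 0.05, where 21.6% of all genes were, and 0 by DESeq2). The term was 0.51 for PLXNA3 (SE 0.25, adjusted p = 0.271), -1.01 for PLXNA4 (SE 0.51, adjusted p = 0.284), -0.25 for PLXND1 (SE 0.12, adjusted p = 0.273), -0.28 for PLXNA2 (SE 0.29, adjusted p = 0.630) and -0.33 for PLXNB3 (SE 0.33, adjusted p = 0.615). Without the shControl libraries numbered 2 the term of PLXNA2 was -0.61 and passed at an adjusted p of 0.0354, under 2-fold. Taken singly, 5 of 7 plexins were called for Cisplatin in shControl cells (19.8% of all genes) and 4 of 7 in shRNF113A cells (23.1%), where PLXNB2 at 0.97 fell short of 2-fold, and the hairpin gave 3 of 8 without (8.66%) and 2 of 8 with Cisplatin (12.3%).

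The partners of plexins were followed in 3 lists, of semaphorins, co-receptors and cytoplasmic partners. Among semaphorins, 16 of 20 were tested, of which 3 rose and 6 fell upon Cisplatin (10.3% and 11.2% of all genes did), with a median log2 fold change of -0.50 beside 0.03 over all genes. SEMA3A, the ligand of class A plexins with neuropilin 1, went from 23.2 ± 4.41 to 4.47 ± 2.13 CPM in shControl and from 66.5 ± 4.79 to 8.41 ± 2.16 CPM in shRNF113A cells (log2 fold change -2.68, adjusted p = 1.05e-07). SEMA3D (-4.80, adjusted p = 1.93e-05) and SEMA6A (-2.76, adjusted p = 2.54e-05), at 1.55 CPM or less on average in every group, fell as well. The untreated shControl libraries of SEMA3D spread from 0.610 to 3.34 CPM. SEMA3B, a secreted semaphorin often lost in lung cancer, rose from 10.8 ± 0.395 to 29.0 ± 4.15 CPM and from 18.2 ± 2.43 to 58.3 ± 5.89 CPM (1.56, adjusted p = 9.93e-09). SEMA7A, the ligand of PLXNC1 (1.90, adjusted p = 5.88e-07), and SEMA3G, which binds neuropilin 2 (2.70, adjusted p = 2.02e-08), rose from lower levels.

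With the hairpin 2 semaphorins were higher and 2 lower, beside 5.47% and 5.52% of all genes. SEMA7A (log2 fold change 1.36, adjusted p = 5.33e-05) and SEMA3A (1.24, adjusted p = 0.000306) were higher, and SEMA3E, the ligand of PLXND1 (-1.76, adjusted p = 0.000309), and SEMA6B (-1.01, adjusted p = 0.00136) were lower. SEMA3E stood at 6.67 ± 1.45 CPM in untreated shControl and 2.48 ± 0.237 CPM in untreated shRNF113A cells.

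No co-receptor rose upon Cisplatin, and 4 of 9 tested of 10 listed fell (NRP1, NRP2, NRCAM and CHL1), beside 10.3% of all genes that rose and 11.2% that fell, with a median of -0.72. NRP1, the neuropilin that holds SEMA3A for class A plexins, went from 306 ± 69.5 to 112 ± 16.3 CPM in shControl and from 312 ± 29.0 to 80.9 ± 12.5 CPM in shRNF113A cells (log2 fold change -1.70, adjusted p = 1.08e-07). CHL1, an adhesion molecule, was led by a single library among untreated shControl cells, with 2.73 to 26.7 CPM (-3.45, adjusted p = 0.000375). NRCAM, an adhesion molecule that associates with neuropilins, fell with the drug (-1.60, adjusted p = 0.000418) and was 10.7-fold lower with the hairpin, at 268 ± 156 CPM in untreated shControl and 26.1 ± 2.62 CPM in untreated shRNF113A cells (-3.42, adjusted p = 4.80e-06). The untreated shControl libraries of NRCAM spread from 93.3 to 395 CPM. MST1R, the RON tyrosine kinase that pairs with class B plexins, was higher with the hairpin (1.38, adjusted p = 1.98e-05).

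All 27 cytoplasmic partners were tested, and with Cisplatin 5 rose and 4 fell, where 21.5% of all genes were called, with a median of -0.27. DPYSL4, a collapsin response mediator, rose from 12.1 ± 1.87 to 86.1 ± 2.55 CPM in shControl and from 12.1 ± 1.17 to 68.0 ± 5.11 CPM in shRNF113A cells (log2 fold change 2.66, adjusted p = 9.00e-11). RHOD, a small GTPase that binds plexins (1.91, adjusted p = 4.50e-06), and MICAL1, a monooxygenase that severs actin filaments (1.54, adjusted p = 3.98e-08), rose as well. FYN, a Src-family kinase downstream of class A plexins (-2.71, adjusted p = 2.53e-07), FARP1, a guanine nucleotide exchange factor (-2.29, adjusted p = 1.78e-09), and DPYSL5 (-1.97, adjusted p = 4.93e-08) fell.

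With the hairpin none of the 27 was higher and 4 were lower, with a median of -0.16. These 4 are 14.8% of the list, where 11% of all genes were called, 5.47% higher and 5.52% lower. They included DPYSL5 (log2 fold change -3.21, adjusted p = 1.05e-08), FYN (-2.27, adjusted p = 8.21e-06) and MICAL2 (-1.23, adjusted p = 3.45e-08). DPYSL5 stood at 24.7 ± 2.52 CPM in untreated shControl and 3.12 ± 0.233 CPM in untreated shRNF113A cells.

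**Figure D4:**
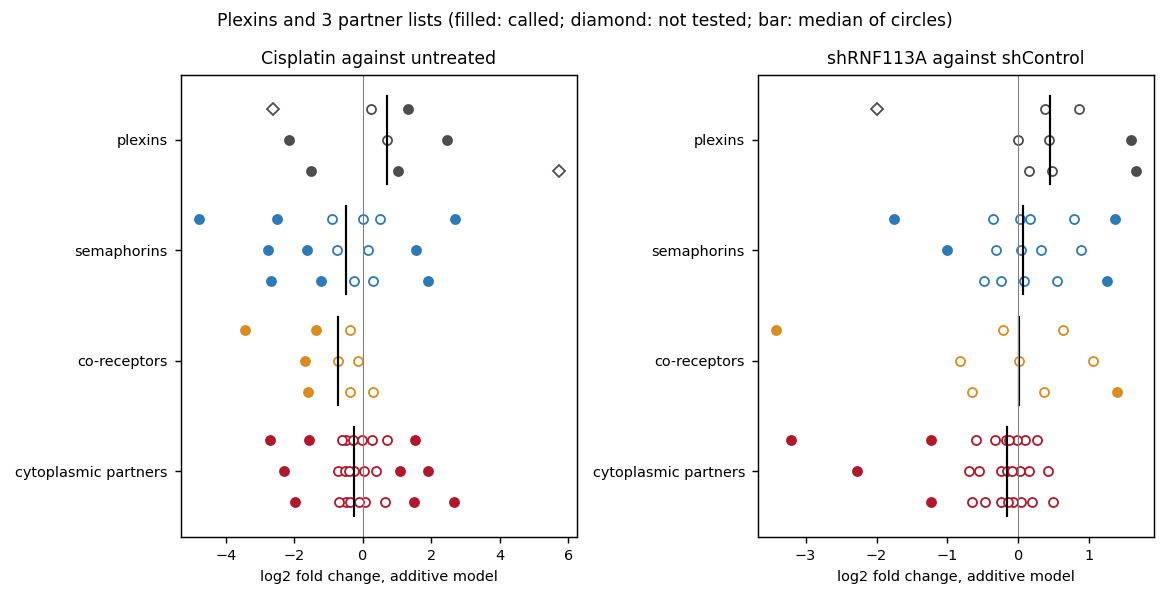
Log2 fold change of each gene of the plexin family and of the 3 partner lists for Cisplatin (left) and for the hairpin (right) in the model with both terms; filled circles are called, diamonds are PLXNC1 and, for Cisplatin, PLXNB3, given as descriptions, and bars are medians of the other genes. The bar of plexins lies at 0.72 with the drug, and those of semaphorins, co-receptors and cytoplasmic partners at -0.50, -0.72 and -0.27.

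Since RNF113A sits in the spliceosome, splicing of the plexins was examined in 2 ways. The first was the inclusion level of annotated and detected events, as the share of transcripts that hold an exon, an intron or a longer exon end. Between 66 and 101 plexin events were tested in each of the 4 comparisons of 3 against 3 libraries. None was called at an adjusted p under 0.05 and 20 percentage points of difference, where 0.058% of all events were called for the hairpin without and 0.172% with Cisplatin, and 0.0681% and 0.283% for the drug in shControl and shRNF113A cells. At an unadjusted p under 0.05, edgeR's quasi-likelihood test found 5 of 73 plexin events for the hairpin without (5.63% of all events) and 11 of 101 with the drug (9.65%), and 3 of 66 (6.15%) and 6 of 76 (10.2%) for the drug in shControl and shRNF113A cells.

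The events that passed the adjusted p with smaller differences all lay in PLXNB2. Its intron 21 (of transcript PLXNB2-201, 66 bases, hg19 chr22:50719929-50719994) was retained at 9.02, 5.01 and 11.6% in untreated shControl and 9.52, 21.5 and 18.9% in untreated shRNF113A libraries. With Cisplatin the levels were 14.4, 8.12 and 13.3% in shControl and 24.6, 28.7 and 22.5% in shRNF113A libraries. The ranges were apart with the drug and overlapped without it. The difference between hairpins was 8.55 ± 3.33 against 16.6 ± 6.29% without (adjusted p = 0.0322, where 17.4% of introns passed) and 11.9 ± 3.34 against 25.3 ± 3.17% with Cisplatin (adjusted p = 0.00430, 26% of introns passed). The drug raised the level in shRNF113A cells (adjusted p = 0.0476, 15.7% passed), while in shControl cells 8.55 and 11.9% did not pass (adjusted p = 0.797, 0.493% passed).

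Of the 7 plexin introns tested with Cisplatin, in PLXNB1, PLXNB2 and PLXNB3, all began with GT and ended with AG, at 66 bases or more in length and with 55.8 to 78.8% G and C. PLXNB2 intron 21 was the shortest and the richest in G and C. PLXNB3 intron 23 of PLXNB3-201, with 73 bases, was next in length, at 11.1 ± 6.57% in treated shControl and 18.5 ± 2.64% in treated shRNF113A cells (adjusted p = 0.175). Both are shown with 12 exon bases on each side and the intron in capitals, from the GRCh37 genome, at chr22:50719917-50720006 on the minus strand and chrX:153040250-153040346 on the plus strand.
PLXNB2 intron 21: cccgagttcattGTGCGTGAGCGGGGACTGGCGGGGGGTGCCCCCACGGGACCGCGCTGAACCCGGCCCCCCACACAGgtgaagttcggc
PLXNB3 intron 23: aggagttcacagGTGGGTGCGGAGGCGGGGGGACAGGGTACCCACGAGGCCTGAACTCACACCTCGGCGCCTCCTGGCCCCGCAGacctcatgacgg

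A second event in PLXNB2 was the use of an acceptor 31 bases ahead of that of exon 13 (hg19 chr22:50722643-50722673), which went from 3.77 ± 0.525% in treated shControl to 7.88 ± 2.64% in treated shRNF113A cells (adjusted p = 0.0334, 2.68% of such events passed) and did not pass without the drug (2.59 ± 1.85 against 4.40 ± 0.739%, adjusted p = 0.638). The stretch between the 2 acceptors is in capitals below, at chr22:50722631-50722693 on the minus strand, and each acceptor follows an AG.
PLXNB2 acceptors: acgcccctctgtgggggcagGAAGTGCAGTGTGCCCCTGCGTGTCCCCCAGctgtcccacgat
The third event set reads that join only exon 7 (chr22:50726096-50726222) to its neighbours against those of exon 8 (chr22:50725540-50725693), and the share of exon 7 was 26.6 ± 2.79% in untreated shControl and 40.6 ± 1.99% in untreated shRNF113A cells (adjusted p = 0.0313, 0.431% of such events passed). Taken alone, either exon was included at 96.7 to 100% in all 6 libraries, so the share compares junction reads of 2 exons that were both included and is no measure of a choice between them.

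Differences of similar size elsewhere in class B did not pass. With Cisplatin, PLXNB1 intron 27 (48453419 to 48453646 on chromosome 3) was retained at 6.52 ± 1.99% in shControl and 12.5 ± 2.49% in shRNF113A cells (adjusted p = 0.0695), PLXNB1 intron 23 (48454579 to 48455078) at 5.81 ± 2.68 and 10.99 ± 3.11% (adjusted p = 0.0888), and PLXNB3 exon 14 (153036941 to 153037110 on chromosome X) was included at 94.1 ± 6.13 and 74.0 ± 12.9% (adjusted p = 0.0780).

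The second way was the number of intronic per 100 exonic reads over the whole gene, which could be tested for 7 plexins, PLXNA4 and PLXNC1 having too few reads. Over all 11488 genes the ratio rose in every comparison, with a median log2 change of 0.47 for the hairpin without and 0.96 with Cisplatin, and of 0.29 and 0.75 for Cisplatin in shControl and shRNF113A cells. The treated shRNF113A libraries also had the smallest share of read pairs assigned to genes, 77.4 to 78.2% against 81.1 to 86.0% elsewhere, whose part in these ratios was not tested. With Cisplatin the hairpin went with a higher ratio in 5 of 7 plexins (PLXNA1, PLXNB1, PLXNB2, PLXNB3 and PLXND1), where 81.5% of all genes were higher, and without it in 3 of 7 (PLXNB1, PLXNB2 and PLXND1), where 28.2% were.

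In treated cells the shift was 1.25 for PLXNA1 (adjusted p = 1.43e-05), 1.06 for PLXND1 (0.000221), 1.03 for PLXNB2 (1.59e-05), 0.83 for PLXNB3 (0.000696) and 0.52 for PLXNB1 (0.0135) on the log2 scale. PLXNB2 had 7.11, 7.47 and 8.42 intronic per 100 exonic reads in treated shControl and 15.5, 14.8 and 16.6 in treated shRNF113A libraries. PLXNA1 had 5.84, 5.86 and 8.55 against 14.8, 16.1 and 17.2, and PLXNB3 27.1, 18.8 and 33.2 against 47.7, 45.5 and 44.6. In all 3 genes the ranges were apart. PLXNA2 (0.07, adjusted p = 0.804) and PLXNA3 (0.38, adjusted p = 0.108) did not pass. In untreated cells the shift was 0.90 for PLXND1 (adjusted p = 0.00774), and those of PLXNB1 (0.51, adjusted p = 0.0445) and PLXNB2 (0.51, adjusted p = 0.0272) were lost without the shControl libraries numbered 2 (adjusted p = 0.0551 and 0.0501), while PLXNA3 then passed (0.67, adjusted p = 0.0282). The call of PLXNB1 was also lost without any 1 of 9 libraries (adjusted p = 0.0590 to 0.190), and that of PLXNB2 without the untreated shControl replicate 2 (0.140) or the untreated shRNF113A replicate 1 (0.0778) or 2 (0.115). With Cisplatin, PLXNB1 was lost without the treated replicate 2 of shControl (0.0608) or shRNF113A cells (0.0511).

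PLXNA2 was the one plexin of the 6 tested whose ratio was called higher with Cisplatin in shControl cells, where 17.5% of all genes were. It had 17.1, 8.60 and 11.9 intronic per 100 exonic reads in untreated and 57.3, 46.3 and 44.7 in treated shControl libraries, and 12.9, 13.0 and 14.5 against 42.2, 48.6 and 69.2 in shRNF113A libraries. The log2 change was 2.01 (adjusted p = 3.37e-05) and 1.96 (adjusted p = 6.44e-07). The intronic reads themselves were 40, 24 and 26 before and 43, 19 and 38 after the drug in shControl cells, and 109, 121 and 95 before and 62, 68 and 83 after it in shRNF113A cells. In shControl cells the higher ratio thus went with fewer exonic reads and about as many intronic ones.

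In shRNF113A cells Cisplatin also went with a higher ratio in PLXNA1 (1.12, adjusted p = 3.72e-05), PLXNB2 (0.96, adjusted p = 3.42e-05) and PLXND1 (0.58, adjusted p = 0.0194), 4 of 6 with PLXNA2, where 64.6% of all genes were higher. The call of PLXND1 was lost without the untreated shRNF113A replicate 1 (adjusted p = 0.0508) or 2 (0.0552) or the treated replicate 2 (0.109). For PLXNB3 the values were 15.6, 14.3 and 21.6 intronic per 100 exonic reads in untreated shControl libraries and 31.4, 20.6 and 27.3 in untreated shRNF113A libraries. They rest on only 7, 5 and 8 and on 11, 13 and 6 intronic reads. The changes of PLXNB3 with Cisplatin were 0.57 and 0.85, as a description. No plexin passed the interaction term of the ratio (edgeR quasi-likelihood test, 2 of 7 at an unadjusted p under 0.05, where 26.6% of all genes were), in which 3.52% of all genes were called higher.

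**Figure D5:**
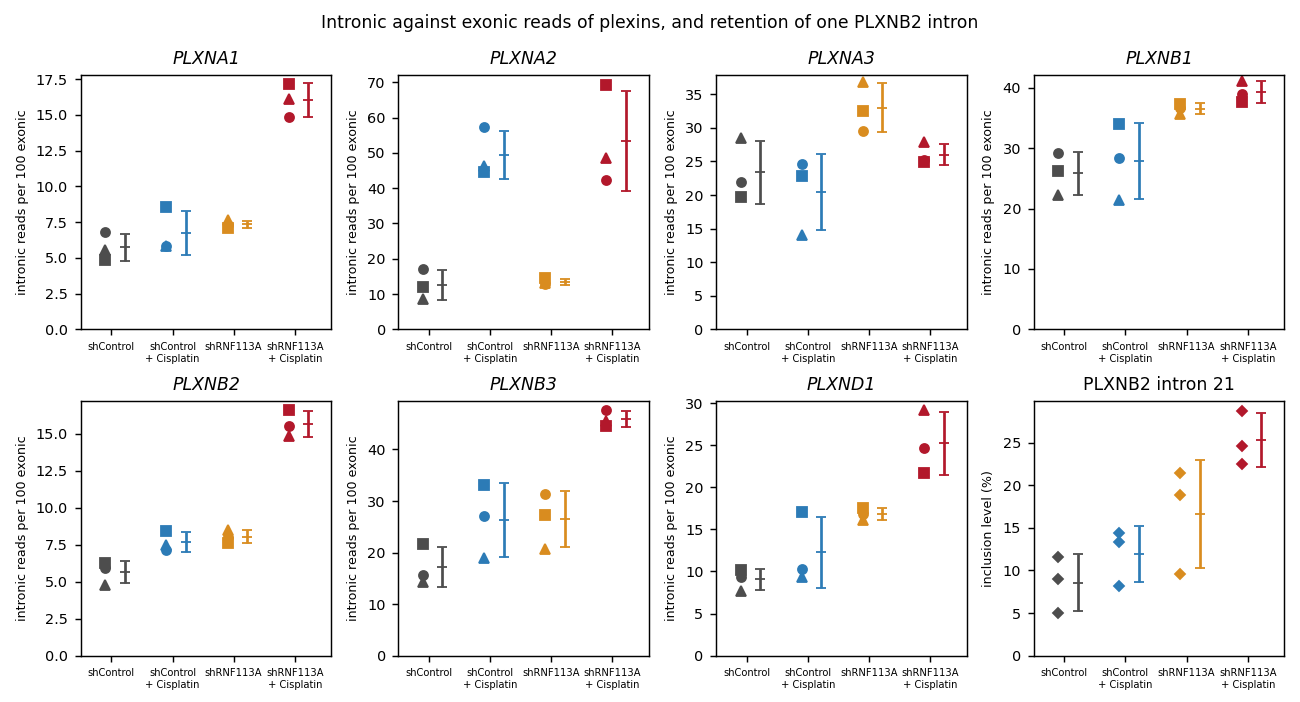
Intronic reads per 100 exonic reads of the 7 plexins tested, per library (circle, triangle and square for replicates 1, 2 and 3), and the inclusion level of PLXNB2 intron 21 (diamonds, libraries not named in the file), with mean ± SD of each group of 3. PLXNA2 is high with Cisplatin in both kinds of cell (42.2 to 69.2). PLXNA1, PLXNB1, PLXNB2, PLXNB3 and PLXND1 are highest in treated shRNF113A cells, PLXNB3 at 44.6 to 47.7.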

How the data were processed

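RNA of 12 A549 cultures was sequenced as stranded poly(A) libraries with paired reads of 76 bases. The authors removed ribosomal, transfer and mitochondrial reads, aligned the rest with STAR 2.5.2b to hg19, and deposited read pair counts per gene from STAR, exonic and genic HTSeq read counts, and rMATS inclusion and skipping counts with inclusion levels as fractions. The columns of their own splicing comparisons (p-values, false discovery rates and differences) were not used. Gene counts of the gene's strand were filtered with filterByExpr (a minimum count of 10), scaled by TMM and tested in R 4.3.3 with edgeR 4.0.16 (quasi-likelihood), Benjamini-Hochberg adjusted over all 15352 genes and called at an adjusted p under 0.05 and at least 2-fold. One model had a drug and a hairpin term, another one mean per group. Each SE was the absolute log2 fold change divided by the square root of the F statistic of the quasi-likelihood test. It was not fitted on its own, also where a change is given as a description. Splicing counts were tested by edgeR as inclusion against skipping, with a minimum of 10 reads of the event per library, and intronic (genic minus exonic) against exonic reads for genes with at least 1 of each. The scripts were tested on simulated counts with known changes.

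Groups and replicate numbers came from the labels. Same-numbered shControl libraries deviated together with and without Cisplatin (r = 0.63, 0.73 and 0.48 over 9779 genes), while shRNF113A libraries did not in every pair (0.40, -0.06 and 0.30). DESeq2 1.42.0, other scalings and filters, both strands, a replicate block and leaving out libraries were alternatives. Named were the 9 plexins, RNF113A, the 2 nearest genes on each side of PLXNB3 (a result not reported here left out) and its overlapping gene, up to 3 called genes per direction of each partner list, and the 5 genes most like PLXNB3 and PLXNC1. The family and the lists were chosen with earlier results of these data known. The labels give the Cisplatin dose in μg/ml while the methods of the study use molar units elsewhere, and which of the 2 holds was not settled. Exon and intron numbers follow a GENCODE annotation on GRCh37, whose coordinates are those of hg19. No protein sequences were used.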

Additional observations from a re-analysis of the deposited data

How the results depend on the processing

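Adding the replicate block, to all 12 libraries or to the shControl libraries as 3 pairs, changed the call of no plexin counted. PLXNC1 is left out of these counts. With and without the block, 5 of 7 were called for Cisplatin, 2 of 8 for the hairpin and 0 for the interaction. Without the block the shares of all genes were 21.5%, 11% and 1.28%. With at least 10 counts in every library, PLXNA4 was no longer tested. For Cisplatin in shRNF113A cells 3 plexins were then called in place of 4, beside 23.1% of all genes in the main fit. For the hairpin in untreated cells 2 were called in place of 3, beside 8.66%. With 10 percentage points as the limit 2 splicing events were called and with no limit 5, in place of 0. With no limit, 0.431 to 26% of all events passed in the categories and comparisons of these 5. The share of all events at 10 points is not given here, so the 2 cannot be set against it. Leaving out 1 library at a time changed calls of PLXNA3, PLXNA4 and PLXNB2 only, PLXNC1 set aside. PLXNB2 fell short of 2-fold for Cisplatin without the untreated shControl replicate 2 (0.94 on the log2 scale). PLXNA4 was called for the hairpin without the treated shRNF113A replicate 2 (1.02). In shControl cells alone PLXNA3 and PLXNB2 could fall short for Cisplatin. In shRNF113A cells alone PLXNB2 was called without the untreated replicate 2 (1.07). In untreated cells alone PLXNA4 could lose its hairpin call. Calls for the hairpin with the drug did not change. No plexin was called for the interaction, and no splicing event was called. For the intronic ratio, leaving out 1 library gave 1 to 3 plexins for Cisplatin in shControl cells (3 without the treated replicate 2). In shRNF113A cells it gave 3 to 4. In the main fit 17.5% and 64.6% of all genes were higher in these 2 comparisons. For the hairpin it gave 4 to 6 with Cisplatin, beside 81.5% of all genes higher in the main fit. Without Cisplatin it gave 1 to 3 (1 without the shControl replicate 2 or the shRNF113A replicate 1 or 2), beside 28.2%. All 4 comparisons together gave 10 to 14. In the order of levels 23 to 26 neighbouring pairs were apart. PLXNB2 fell short of 2-fold for Cisplatin with DESeq2 or its size factors (1.00 on the log2 scale) and without the treated shControl replicate 1 or 3 (0.98).

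Some differences turned sign, and the cause was not tested. Those of PLXNC1 are descriptions without a test. For PLXNB3 and the hairpin the log2 difference was -0.0275 with DESeq2 size factors, -0.0082 without a filter, -0.0339 with both strands, -0.0078 with DESeq2, -0.12 to 0.0673 without 1 library and -0.19 without both shControl libraries numbered 2, and in untreated cells -0.0887 to 0.35 without 1 library. PLXNC1 turned with both strands counted, to 0.0930 for the hairpin and 0.64 with Cisplatin. PLXNB2 in treated cells was -0.0298 without both shControl libraries numbered 2 and -0.0749 to 0.10 without 1 library, and the interaction ranged from -0.28 to 0.0489 for PLXNB2 and from -0.32 to 0.17 for PLXNA1. Of all values of single plexins under other settings, 1213 kept direction and call, 20 lost and 3 gained a call, and 19 turned sign. These totals include PLXNC1, whose values are descriptions. The effect of leaving out the shControl libraries numbered 2 on splicing events was not run, since the splicing files do not name the libraries of a group.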
